A study of Mus musculus with 6 samples.

Results

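Sclerostin (Sost), Sostdc1, Dkk2, Dkk3, Sfrp1, Sfrp2 and Wif1, grouped here as secreted antagonists of Wnt signaling, were examined in glomeruli of dendrin knockout mice. Lrp4, Lrp5 and Lrp6, which encode co-receptors of the LRP family, were examined as well. These 10 genes, of 18194 genes on the array, were taken with every probe set that the annotation assigns to 1 of them alone, 18 of 45101 probe sets. The group was picked by how Sost differed between knockout and control mice in these same arrays, so that all differences of the 10 genes between the genotypes are given as a description and not as a test. The tissue was isolated glomeruli of 3 mice labelled Dendrin KO and of 3 littermates labelled wild type, called control here, all 13 months old and of the 129S6SvEv/C57BL6 background, with a separate Affymetrix array for every mouse. In the knockout line the coding sequence of dendrin is replaced in all cells of the animal by a cassette with eGFP and a neomycin resistance gene, and according to the methods the line, which goes back to 1 targeted ES cell line, was backcrossed onto C57BL/6. None of the sources used here gives the sex of the mice.

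Wnt ligands bind a Frizzled receptor together with Lrp5 or Lrp6, which leads to the stabilization of β-catenin and to the transcription of target genes by TCF and LEF factors. Sclerostin, best known as a product of osteocytes that limits bone formation, and the related protein encoded by Sostdc1 bind Lrp5 and Lrp6, and Lrp4 serves as an anchor for sclerostin. Dkk2 binds the same co-receptors together with Kremen receptors, whereas the Sfrp proteins and Wif1 bind the Wnt ligands themselves. This description of Dkk2 is not meant for Dkk3. In podocytes, a strong activation of β-catenin is known to be harmful to the filtration barrier.

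The values are log2 GCRMA values, which are corrected for background, quantile normalized and then summarized from probes to probe sets. The medians of the arrays ran from 2.66 to 2.69. Probe sets with a mean under log2 4 over the 6 arrays are called dim, and these were 56.5% of the array. Ddn, the gene of dendrin, was at 3.80 to 3.81 in the knockout mice and at 12.22 to 12.81 in the control mice. All 9 measured podocyte markers and all 13 markers of the glomerular endothelium were above the dim level. Control 2 stood apart from the other arrays. Set against the average of the other 5 arrays, its 6 distal nephron markers (loop, distal tubule or collecting duct) that are not dim had a median difference of 2.21 (log2), its 7 proximal tubule markers one of 1.29 and its 10 leukocyte markers one of -2.75. In whole glomeruli, fewer cells of a type and less RNA per cell cannot be told apart.

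Sost was higher in all 3 knockout mice than in all 3 control mice, on both of its probe sets. On the brighter probe set it was at 9.93, 9.50 and 9.76 in the knockout mice, against 9.10, 8.88 and 9.10 in the control mice. The lowest knockout mouse thus lay 0.39 (log2) above the highest control mouse. Knockout glomeruli averaged 9.73 ± 0.22 and control glomeruli 9.03 ± 0.13 (SD, n = 3 mice each), a difference of 0.70 (limma standard error 0.14) or 1.63-fold. On the dimmer probe set Sost was at 7.29, 6.17 and 6.28 in the knockout mice, against 5.87, 5.81 and 5.97 in the control mice. This probe set also differed by 0.70, but with a standard error of 0.35, because knockout 1 stood far above knockout 2 and 3. Without knockout 1 its difference was 0.34, whereas that of the brighter probe set was 0.60. Both probe sets are annotated with the same source sequence and are therefore not independent measurements of the gene. Control 2 had the lowest Sost value of all arrays on both probe sets, and without this array the differences were 0.63 and 0.66. Among the cell type markers, all 9 of the podocyte were higher in knockout glomeruli by a median of 0.12, 12 of 13 of the glomerular endothelium were lower, with a median of -0.10, and their part in the Sost difference was not tested. The summed level of the podocyte markers ran from 16.82 to 16.89 (log2) in knockout and from 16.65 to 16.95 in control glomeruli, and that of the endothelial markers from 16.60 to 16.68 in knockout and from 16.67 to 16.75 in control glomeruli. All 10 leukocyte markers that are not dim were higher in knockout glomeruli as well, by a median of 0.68, and all 6 distal nephron markers were lower, with a median of -0.67. The summed level of the 12 leukocyte markers, of which Cd79a and Cd3e were dim, ran from 14.50 to 15.31 in knockout glomeruli. In control 1, 2 and 3 it was 14.87, 12.91 and 15.26, so that only control 2 lay outside the knockout range. That of the 14 distal nephron markers ran from 11.53 to 11.98 in knockout glomeruli. In control 1, 2 and 3 it was 11.54, 13.72 and 11.58, and again only control 2 lay outside the knockout range. The part of leukocyte RNA in the Sost difference was not tested either.

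**Figure D1:**
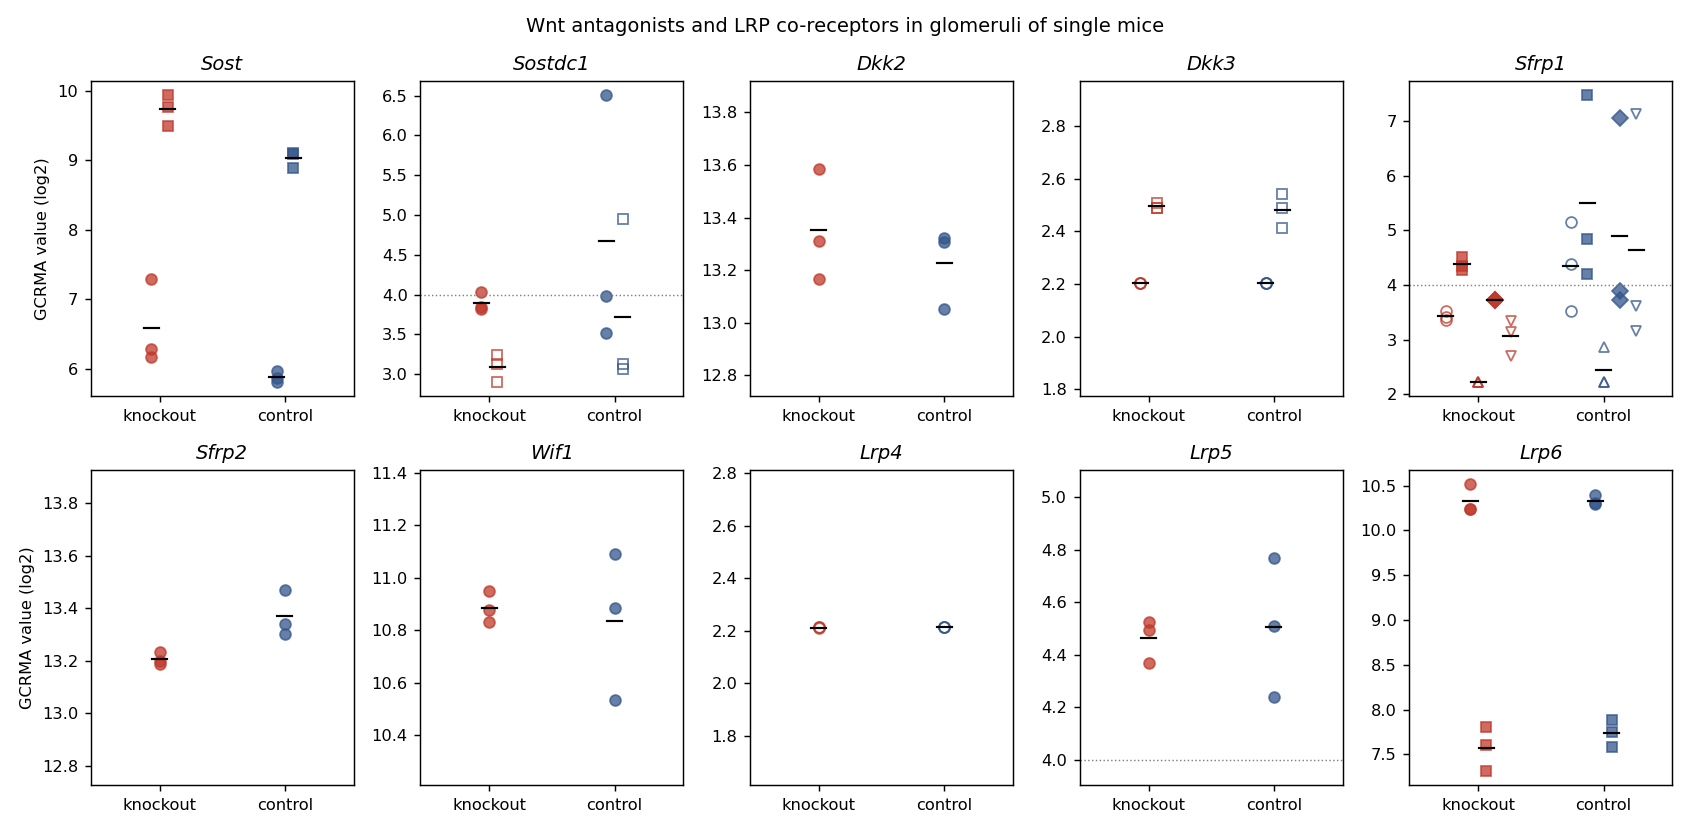
GCRMA values (log2) of the 10 genes in glomeruli of single mice, knockout in red and control in blue. Each point is 1 mouse, each marker shape 1 probe set, open markers are dim probe sets, black bars are group means, the dotted line marks log2 4, and each panel has its own axis. Both Sost probe sets separate the groups, and the high control values of Sostdc1 and Sfrp1 are those of control 2.

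Promoter sequences of 3 secreted antagonists are shown to place Sost beside Sfrp2, the member whose knockout values were all below the control values, and Dkk2, in which the groups overlapped. That of Wif1, in which they overlapped too, is described and not printed. Promoters of 4 of the 10 genes were matched in RefSeq (build GRCm38.p6), each with 250 bases before and 50 bases after the start of the gene. The Sost promoter lies at chr11:101966966-101967265 on the minus strand, that of Sfrp2 at chr3:83766071-83766370 on the plus strand and that of Dkk2 at chr3:132085042-132085341 on the plus strand. Capitals mark the letters TAAAAA on the strand of the gene.
Sost: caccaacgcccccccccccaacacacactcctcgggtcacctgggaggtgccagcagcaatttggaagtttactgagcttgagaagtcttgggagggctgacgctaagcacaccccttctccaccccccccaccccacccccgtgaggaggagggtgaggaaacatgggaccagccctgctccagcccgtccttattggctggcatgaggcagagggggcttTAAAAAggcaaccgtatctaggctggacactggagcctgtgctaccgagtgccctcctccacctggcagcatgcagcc
Sfrp2: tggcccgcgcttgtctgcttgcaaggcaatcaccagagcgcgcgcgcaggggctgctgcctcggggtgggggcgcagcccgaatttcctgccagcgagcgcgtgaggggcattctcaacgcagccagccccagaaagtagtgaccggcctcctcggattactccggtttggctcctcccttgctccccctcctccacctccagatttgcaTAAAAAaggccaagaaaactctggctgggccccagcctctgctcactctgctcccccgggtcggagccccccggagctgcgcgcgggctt
Dkk2: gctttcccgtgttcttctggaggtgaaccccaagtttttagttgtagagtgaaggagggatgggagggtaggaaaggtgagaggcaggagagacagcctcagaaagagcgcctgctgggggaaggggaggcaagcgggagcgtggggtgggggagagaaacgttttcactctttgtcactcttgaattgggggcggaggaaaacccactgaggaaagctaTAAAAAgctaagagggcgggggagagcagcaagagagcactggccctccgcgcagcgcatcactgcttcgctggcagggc
TAAAAA began 28 bases before the start of Sost, 40 bases before that of Sfrp2 and 30 bases before that of Dkk2. The Wif1 promoter (chr10:121033754-121034053, plus strand) did not contain these letters on either strand, and Dkk2 held them on the opposite strand as well. Of 32851 promoters of the same length, 11.1% contained TAAAAA on the strand of the gene and 19.3% on either strand. In the window from 45 to 10 bases before the start, 1.3% contained it on the strand of the gene. The core letters of the TCF and LEF motif, CTTTGA or CTTTGT, were searched on both strands as well. They were found in Dkk2 alone of the 4 promoters, 80 bases before the start, and in 31.2% of all promoters. The G and C share was 62.0% in Sost, 66.0% in Sfrp2, 57.7% in Dkk2 and 63.0% in Wif1, and the median of all promoters was 52.7%. These matches and shares are a description of the sequences and not a test of enrichment, and no binding was measured here.

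The other 3 antagonists with bright probe sets, Dkk2, Sfrp2 and Wif1, differed far less between the genotypes than Sost. Sfrp2, which binds Wnt ligands through a Frizzled-like domain, was at 13.20, 13.23 and 13.19 in the knockout mice, against 13.34, 13.30 and 13.47 in the control mice. All knockout mice were below all control mice, yet the gap between the groups was only 0.069 and the difference -0.16 (standard error 0.050), or 1.12-fold. Dkk2, which encodes a Dickkopf protein that can block or, in some settings, activate Lrp6, was at 13.59, 13.31 and 13.17 in the knockout mice, against 13.32, 13.05 and 13.31 in the control mice. Here the groups overlapped, and knockout glomeruli averaged 13.35 ± 0.21, control glomeruli 13.23 ± 0.15 (SD, n = 3 each). Wif1, the Wnt inhibitory factor, was at 10.95, 10.83 and 10.87 in the knockout mice, against 10.53, 11.09 and 10.88 in the control mice. The knockout values of Wif1 lay inside the range of the control values, and its difference was 0.049 (standard error 0.16), which turned to -0.10 without control 1. The Sost difference exceeded that of Dkk2 by 0.58, that of Wif1 by 0.66 and that of Sfrp2 by 0.87 (log2).

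Sfrp1 and Sostdc1 had lower means in knockout than in control glomeruli, but their high control values came from 1 mouse. Sfrp1, a further Wnt-binding antagonist, has 5 probe sets, of which 3 are dim. They come from 2 source sequences and are therefore not 5 independent measurements of the gene. On the brightest probe set Sfrp1 was at 4.34, 4.51 and 4.28 in the knockout mice, against 4.20, 7.48 and 4.84 in the control mice. Control 2 exceeded the average of the other 5 arrays by 3.04 on this probe set, by 3.30 on the next brightest and by 3.94 on a dim one. The difference between the genotypes was -1.12 (standard error 0.97) on the brightest probe set and -0.14 without control 2. Over the 5 probe sets, the differences ran from -1.58 to -0.21 with all arrays and from -0.52 to 0 without control 2. The difference of -0.52 belonged to a dim probe set on which control 3 was also high, with 4.38, against 3.36 to 3.53 in the knockout mice.
Sostdc1, the closest relative of Sost, which also antagonizes BMP ligands, was at 3.82, 3.85 and 4.03 in the knockout mice, against 3.52, 6.50 and 3.98 in the control mice on its brighter probe set. Knockout glomeruli averaged 3.90 ± 0.11 and control glomeruli 4.67 ± 1.61 (SD, n = 3 each), and the difference of -0.77 (standard error 0.90) turned to 0.15 without control 2. On the other probe set, which is dim and was made from the same source sequence, the difference was -0.62 and without control 2 it was -0.0061. Sost and Sostdc1 thus stood at opposite ends in control 2, where the brighter probe set of Sost differed by -0.60 from the average of the other 5 arrays and that of Sostdc1 by 2.66. In the same mouse, the summed level of all 14 distal nephron markers was 13.72 (log2), against 11.53 to 11.98 in the knockout mice and 11.54 to 11.58 in control 1 and 3. Of these 14 markers, 8 were dim by their mean over the 6 arrays, among them Aqp2, Aqp3, Scnn1b, Scnn1g, Atp6v1b1 and Slc4a1 of the collecting duct. A dim mean does not give the level of a marker in control 2 alone. The part of tubule RNA in the Sfrp1 and Sostdc1 values was not tested.

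**Figure D2:**
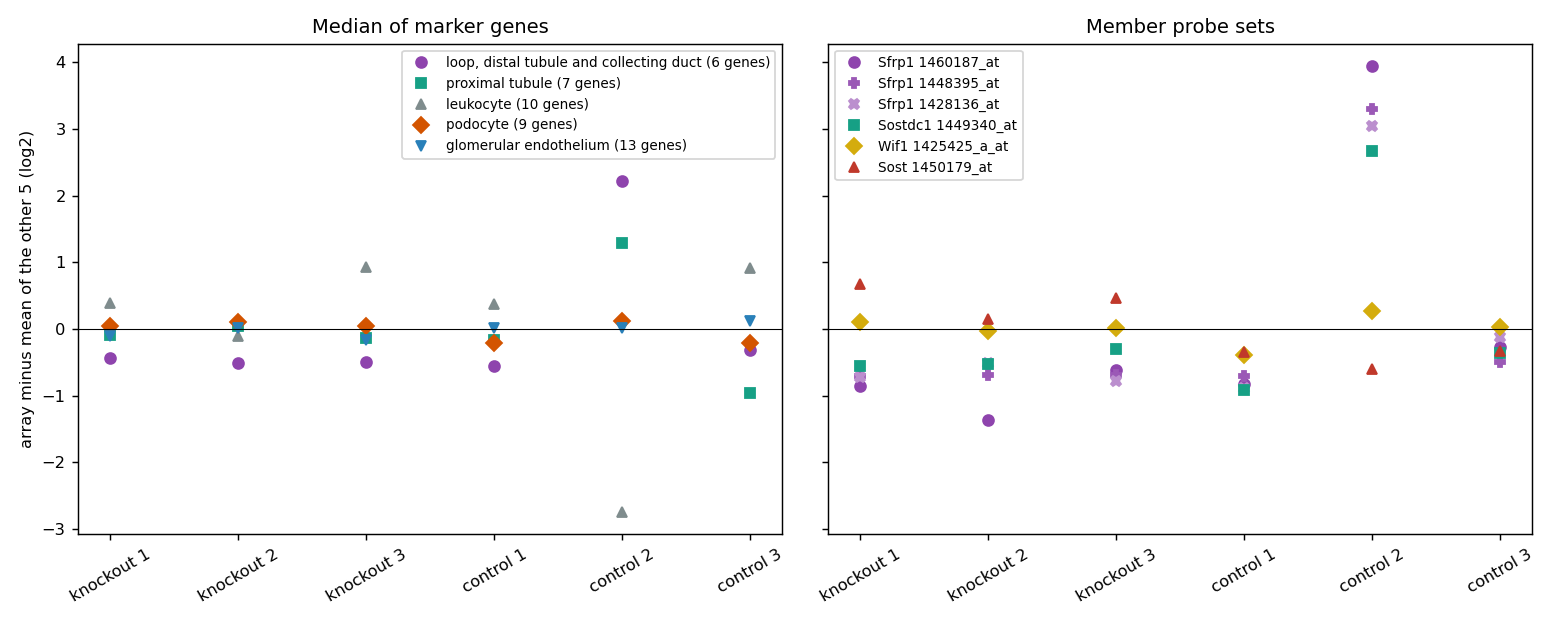
Each array minus the mean of the other 5 (log2). The left panel gives the median over the marker genes of a cell type that are not dim, and the right panel gives single probe sets of Sfrp1, Sostdc1, Wif1 and Sost. On control 2 the tubule markers, Sfrp1 and Sostdc1 were high, the leukocyte markers low and Sost at -0.60.

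Dkk3 gave no clear signal on any array. Its 2 probe sets were dim, with the first at 2.20 on all 6 arrays and the other between 2.49 and 2.51 in the knockout mice and between 2.41 and 2.54 in the control mice. The lowest value on the array is 2.20, so that the first probe set lay at the floor of the values, at which no level can be given.

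The LRP co-receptors, through which sclerostin acts, differed little between knockout and control glomeruli. Lrp6 had the clearest signal. On its brighter probe set it was at 10.23, 10.52 and 10.24 in the knockout mice, against 10.39, 10.29 and 10.30 in the control mice. The groups overlapped and the means were the same to 2 decimals, 10.33 ± 0.16 for knockout and 10.33 ± 0.056 for control glomeruli (SD, n = 3 each). On the other Lrp6 probe set the values were 7.61, 7.80 and 7.32 in the knockout mice, against 7.88, 7.75 and 7.58 in the control mice. The difference there was -0.16 (standard error 0.16), with -0.27 without knockout 2 and -0.031 without knockout 3, and the groups overlapped again. Lrp5, the other co-receptor of the β-catenin pathway, was only just above the dim level, at 4.52, 4.50 and 4.37 in the knockout mice, against 4.24, 4.51 and 4.77 in the control mice. Its difference of -0.044 (standard error 0.15) turned to 0.087 without control 3. Lrp4, which also serves as a receptor of agrin, was at 2.21 to 2.22 on all arrays, close to the floor, and its level could not be read from its single probe set.

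**Figure D3:**
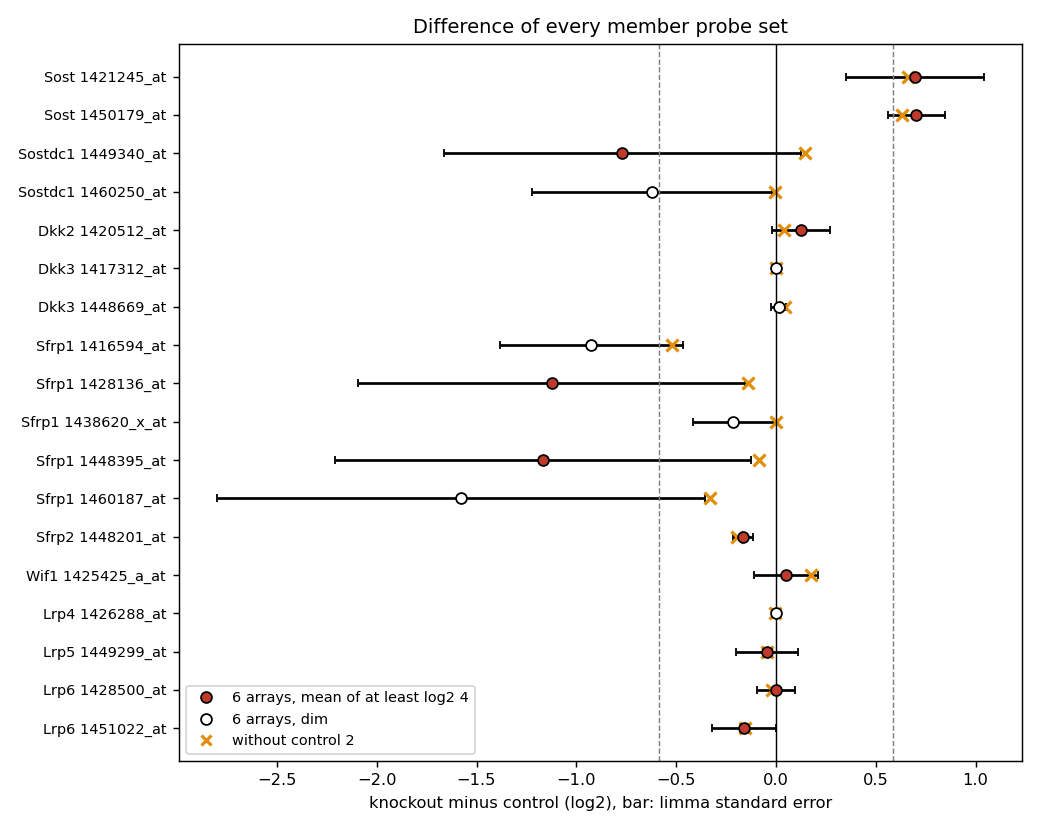
Difference between knockout and control glomeruli (log2, horizontal axis) for the 18 probe sets of the 10 genes, with the limma standard error as a bar. Filled circles have a mean of at least log2 4, open circles are dim, crosses give the difference without control 2, and dashed lines mark 1.5-fold. The 2 Sost probe sets lie at 0.70 with all arrays and at 0.63 and 0.66 without control 2. The Sfrp1 and Sostdc1 probe sets move toward 0 without it.

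Of the 18 probe sets, 11 had a mean of at least log2 4, and they belong to 8 of the 10 genes. Only 9 of them, of 7 genes, would have done so without control 2, since 1 Sfrp1 probe set and 1 Sostdc1 probe set passed through this array. With the criterion of the study, a fold over 1.5 and an unadjusted p under 0.05, here from limma, 1 of the 18 probe sets was called, the brighter one of Sost, and it was higher in knockout. Over the whole array 0.18% of the probe sets were called and 0.0843% in this direction. The call of Sost is part of the reason why the genes were taken and is not evidence about them. Whatever the p value, 8 of the 18 were past 1.5-fold, against 0.9% of the array. They were both of Sost, both of Sostdc1 and 4 of Sfrp1, which are not independent within a gene. Without control 2, only the 2 of Sost were past 1.5-fold, against 0.933% of the array. An unadjusted p under 0.05 was reached by 2 of the 18 with limma, against 3.63% of the array, and by 2 with SAM, against 8.07% of the probe sets that vary. These were 1 of Sost and that of Sfrp2. None of the 18 had an adjusted p under 0.05 with limma (Benjamini-Hochberg over all probe sets), against 0.00222% of the array. Among the 11 that are not dim, 3 had groups without overlap, against 13.7% of such probe sets on the array. All knockout values were above all control values for 2, both of Sost, against 8.03% of the array, and below them for 1, that of Sfrp2, against 5.65%. The median difference was -0.10 over the 18 probe sets and -0.044 over the 11, against 0 over the whole array and 0.015 over its probe sets that are not dim.

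The genes closest to Sost in pattern over the 6 arrays were Cpe, Tnfaip2, Neurl1b, Lsm12 and Cdkn1a. They were found among 17914 probe sets with a single gene and a mean of at least log2 4, by the root mean square difference from the brighter Sost probe set after each probe set had been centred on its own mean. This measure takes in the difference between the genotypes, so that a shared direction is part of the choice. Cpe, which encodes carboxypeptidase E, an enzyme of prohormone processing, was closest with 0.11 (log2), and it was at 9.87, 9.73 and 9.67 in the knockout mice, against 9.16, 8.97 and 9.23 in the control mice. Tnfaip2, a gene induced by tumor necrosis factor, followed with 0.14 and was at 11.84, 11.39 and 11.80 in the knockout mice, against 11.13, 10.65 and 11.30 in the control mice. All 5 had their lowest value in control 2, as Sost did, which the choice by pattern favors. Neurl1b, a ubiquitin ligase gene of the Notch pathway, was at a distance of 0.14, and Lsm12 and Cdkn1a, which encodes the cell cycle inhibitor p21, were at 0.15 each. For comparison, the second Sost probe set was at a distance of 0.26, Dkk2 at 0.31 and Wif1 at 0.41. The Dkk3 probe set at the floor, which hardly varied, was at 0.38, so that a distance near this value shows no likeness to Sost.

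**Figure D4:**
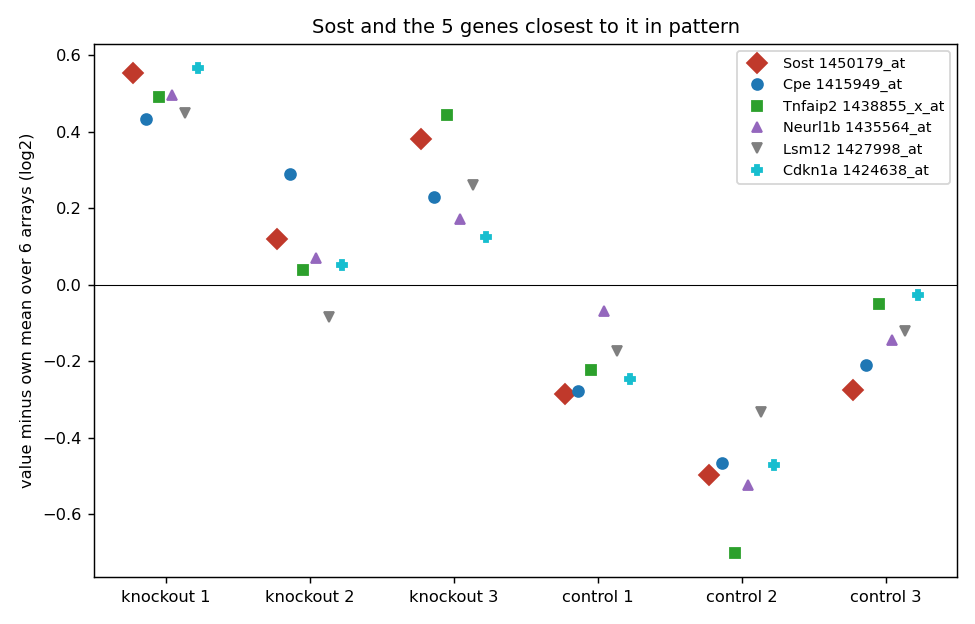
The brighter Sost probe set and the 5 genes closest to it, as the value minus the own mean of the probe set over the 6 arrays (log2), for each mouse. Red diamonds are Sost, and all 6 genes had their lowest value in control 2, which the choice by pattern favors.

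The rest of the Wnt pathway was followed in lists of 106 further genes, of which 102 were measured by 224 probe sets. Of these, 118 were not dim, with 53 higher and 65 lower in knockout glomeruli and a median of -0.015. Only 1 passed the criterion, that of Fzd6, or 0.446% against 0.18% of the array. An unadjusted p under 0.05 was reached by 8 with limma (3.57% against 3.63% of the array) and by 12 with SAM (7.64% of the 157 that vary, against 8.07% of the array), and none had an adjusted p under 0.05. The groups were without overlap for 13 of the 118, or 11.0% against 13.7%.

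Among other antagonists of the pathway, none of 38 probe sets of 16 genes passed the criterion. Frzb, a secreted Frizzled-related protein, had a difference of 0.88 (standard error 0.55), with 6.05, 4.69 and 5.03 in the knockout mice, against 4.78, 3.57 and 4.79 in the control mice, so that the groups overlapped. Its difference was 0.48 without knockout 1 and 0.48 without control 2. Kremen1, a receptor with which Dkk2 acts on Lrp6, was at 8.85, 8.74 and 8.74 in the knockout mice, against 8.47, 8.57 and 8.53 in the control mice. All knockout mice were above all control mice, and its difference of 0.25 (standard error 0.045) had an adjusted p of 0.986 from limma. Trabd2b, a protease that inactivates Wnt ligands, was at 0.34 (standard error 0.24), and Shisa3 at 0.14 (standard error 0.17). In the DAN family of cystine-knot proteins, to which Sost and Sostdc1 belong, 2 of the 5 other probe sets were not dim. These were the BMP antagonist Nbl1 (-0.049, standard error 0.14) and Dand5 (-0.036, standard error 0.14).

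Most Wnt ligand genes gave no clear signal, with 28 of 32 probe sets dim. Of the rest, Wnt5b was at 0.19 (standard error 0.16) and Wnt4, the ligand of nephron formation, at 0.047 (standard error 0.048), each on its brighter probe set. On a further probe set, Wnt5b was at 0.57 (standard error 0.52) and Wnt4 at -0.10 (standard error 0.25). R-spondins and their receptors, which amplify Wnt signals, had 13 of 15 probe sets dim. Their receptor gene Lgr4 was at 0.040 (standard error 0.17), and Znrf3, which encodes a ligase that removes Frizzled receptors, was at -0.14 (standard error 0.17) and highest in control 2, without which its difference was 0.034. Among the receptors, Fzd6 was at 6.79, 7.46 and 6.80 in the knockout mice, against 7.69, 7.46 and 7.83 in the control mice on its brightest probe set. Knockout 2 and control 2 almost met, and the difference was -0.64 (standard error 0.24, unadjusted p = 0.0489 and adjusted p = 1 from limma). With 1 array left out in turn, Fzd6 passed the criterion without knockout 2 and with none of the other 5 omissions, and it was not called with an offset of 16, with array weights or with the replicate number as a block. On another probe set Fzd6 was at -0.75 (standard error 0.33), and the last one of the gene was at the floor. Next to Fzd6, Fzd7 was at -0.41 (standard error 0.20), Ptk7, a pseudokinase of planar cell polarity, at -0.21 (standard error 0.25) and Fzd3 at 0.10 (standard error 0.11).

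Among probe sets for partners of the LRP proteins, 4 of 13 above the dim level, of 7 genes, had all knockout values below all control values. This stands against 5.65% of the array and 7 of 118 in the wider pathway, in which the 13 are included. The count was the highest of any list, and probe sets of the same gene are not independent. None of the 13 passed the criterion. Tspan12, a tetraspanin of the Frizzled and Lrp5 receptor complex, was at 11.31, 11.21 and 11.20 in the knockout mice, against 11.62, 11.47 and 11.46 in the control mice on its brightest probe set, without overlap. The glypican gene Gpc4 was at -0.25 (standard error 0.070) and Agrn, which encodes agrin, a ligand of Lrp4 and a proteoglycan of the glomerular basement membrane, at -0.12 (standard error 0.034), both without overlap. The adjusted p of Tspan12, Gpc4 and Agrn was 1 from limma. Caprin2, which promotes the phosphorylation of Lrp6, was at 0.074 (standard error 0.045).
Within the cell, 63 probe sets of 23 genes for Wnt secretion and β-catenin transduction held no call by the criterion. Tcf7l1, a TCF factor that mostly represses, was at 10.15, 10.14 and 10.24 in the knockout mice, against 10.07, 9.85 and 9.79 in the control mice, a difference of 0.28 (standard error 0.086). Csnk1g1, one of the kinases that phosphorylate Lrp6, was at 7.29, 7.48 and 7.40 in the knockout mice, against 7.61, 7.69 and 7.67 in the control mice, a difference of -0.27 (standard error 0.059). In both the groups did not overlap, and the adjusted p was 1 from limma. Csnk1e, a kinase that acts on the Dvl proteins, was at 0.19 (standard error 0.078) and Tcf7l2, a further TCF factor, at -0.23 (standard error 0.13).
Target genes of β-catenin had 16 of 35 probe sets that were not dim, with 9 higher and 7 lower in knockout glomeruli and a median of 0.044, and none passed the criterion. Nkd1, a feedback inhibitor, was at 6.11, 6.47 and 6.29 in the knockout mice, against 6.10, 5.50 and 5.75 in the control mice, a difference of 0.51 (standard error 0.19, adjusted p = 1 from limma). It passed the criterion only when control 1 was left out. Axin2, the most widely used readout of the pathway, was at 5.05, 5.83 and 5.05 in the knockout mice, against 5.10, 5.05 and 5.51 in the control mice. Its groups overlapped, with a difference of 0.087 (standard error 0.29). Tnfrsf19 was at 0.23 (standard error 0.44), and at -0.14 without control 2.

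**Figure D5:**
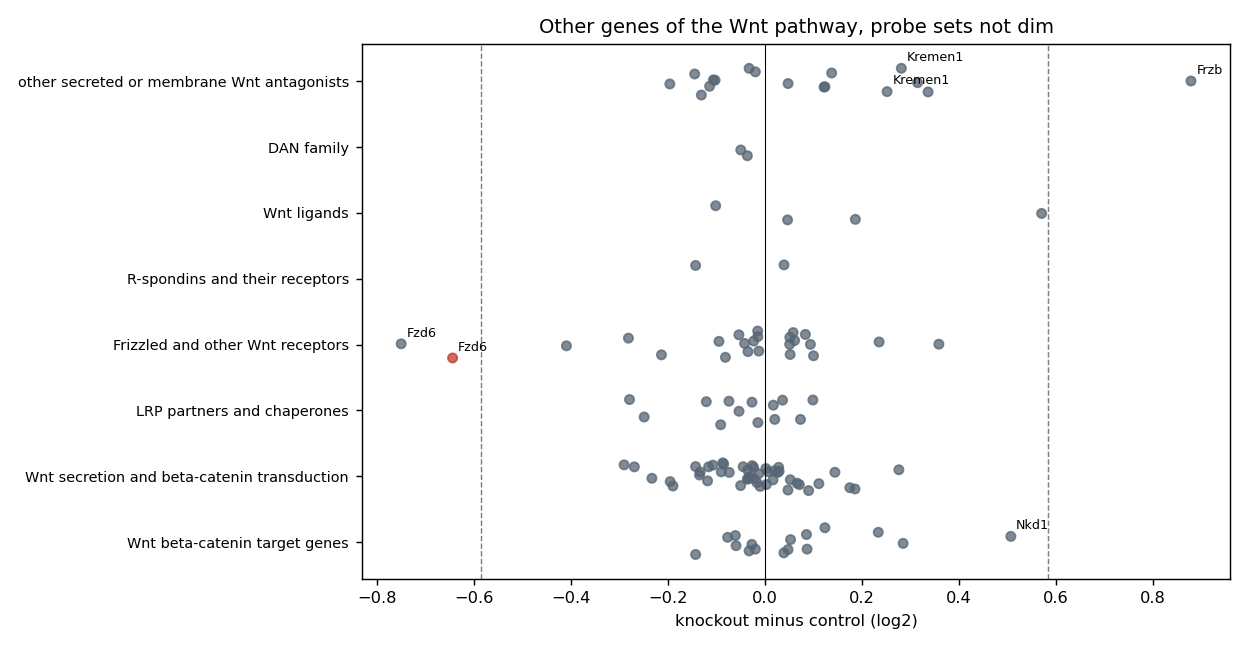
Difference between knockout and control glomeruli (log2, horizontal axis) for the 118 probe sets of other Wnt pathway genes that are not dim, by list. Each point is 1 probe set, a gene in more than 1 list is drawn in each, and dashed lines mark 1.5-fold. The red point is the Fzd6 probe set past the criterion, at -0.64.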

How the data were processed

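Glomerular RNA of 3 dendrin knockout and 3 littermate control mice was measured on Affymetrix Mouse Genome arrays, 1 array per mouse. The authors deposited log2 values made with GCRMA (version 2.30.0), which subtracts background by probe sequence, quantile normalizes the arrays and summarizes probes. Array data hold no counts, and the number of arrays limits the precision. Probe sets were paired with genes through the platform annotation (34958 with 1 gene, 932 with several, 9211 with none), and symbols were updated through RefSeq. Arrays were grouped by their labels, and knockout was set against control by lmFit and eBayes of limma (version 3.58.1, R 4.3.3) over all probe sets without a filter or covariate, two-sided, with Benjamini-Hochberg adjustment. With 3 mice against 3, an exact permutation test cannot go below a two-sided p of 0.1. The fits were tested on simulated data. SAM, named in the methods, was written out in R with 20 permutations. The other alternatives were a trend and robust prior, filters (mean of at least log2 4, mean of at least log2 6, range over 0.1), median centring, repeated quantile normalization, an offset of 16, array weights, a replicate block, 1 probe set per gene and the omission of each array. The 10 genes and all lists were chosen with earlier results of these data known. Besides the 10 genes, up to 4 genes per list with the largest difference among those not dim, each by its brightest probe set, all probe sets past the criterion and the 5 genes closest to Sost are named. Probe sets for the same genes that are named beside these were chosen after their values were seen. Markers of parietal epithelium (2 of 7 measured genes not dim), mesangium and smooth muscle (11 of 12) and fibroblasts (4 of 9) had median differences of 0.15, 0.042 and -0.014. Sequences of proteins were not used here.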

Additional observations from a re-analysis of the deposited data

How the results depend on the processing

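The brighter Sost probe set was past the criterion in each alternative in which the 10 genes were counted, which leaves out that with 1 probe set per gene. Its difference was 0.60 to 0.82 when 1 array was left out in turn. Sost was picked by this difference and the alternatives use the same arrays, so that this is a description and not evidence about Sost. The median difference of the 18 probe sets ran from -0.14 to -0.0043 with 1 array left out and was -0.00019 with 1 probe set per gene. In place of 1 probe set of the 10 genes past the criterion, 2 were counted with the filter on a range above 0.1 and 1 to 2 with 1 array left out, the added one being a dim one of Sfrp1, called without control 1. In place of 1 probe set of the wider pathway, 2 were counted with a mean of at least log2 4 and with a range above 0.1, 0 with an offset of 16, 0 with array weights and 0 to 2 with 1 array left out. These were probe sets of Fzd6, except that Rspo3 took its place without knockout 1 and Nkd1 without control 1. None was called without knockout 3, control 2 or control 3. Over the array, 81 probe sets passed the criterion, 141 with the range filter and 78 to 140 with 1 array left out, the highest without control 2. At an adjusted p under 0.05, 1 probe set of the array was counted with limma, 0 with SAM and 1 to 7 with 1 array left out, and none of the 10 genes or the wider pathway in any setting. The cause of these changes was not tested. Same-numbered knockout and control arrays correlated in their deviations from the group means by 0.0949, 0.352 and 0.248. Each array correlated best with its own number, though control 1 correlated almost as well with knockout 3 (0.0943). This is a hint from the data and not from the design. With the replicate number as a block, 0 probe sets of the wider pathway, 1 of the 10 genes and 64 of the array passed the criterion, and the differences were the same. Signs that turned under some setting were those of the brighter Lrp6 probe set in 5 of 14 settings, of Lrp5 in 3 of 13, and of Wif1, the brighter Sostdc1 probe set, Lrp4 and 1 Dkk3 probe set in 1 each. With dim probe sets, signal over background is the limit, and no level can be given for Dkk3 and Lrp4.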
